A study of Mus musculus with 6 samples.

Results

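10 genes of the immediate early response were followed over all 6 arrays of a study of Sox9 in the embryonic eye surface: Egr1, Fos, Fosb, Jun, Junb, Dusp1, Ier2, Ier3, Atf3 and Zfp36. The list gathers genes that stress or handling can switch on, and every probe whose platform gene symbol was one of the 10 was read. That gave 11 probes, 2 for Junb and 1 for each of the other 9 genes, out of 45281 probes and 19053 named genes on the array. The tissue was conjunctival epithelium, which faces the inner eyelid and the outer eyeball, cut by laser from eosin-stained frozen sections of E14.5 mouse embryos with a mixed FVB and 129 background. Amplification started from 15 ng of RNA. Each array held 1 region (nasal, temporal or dorsal) of 1 genotype, so there were 3 arrays labelled knockout (KO) and 3 labelled wild type (WT) on 1 slide. KO embryos were Sox9 fx/fx and Le-Cre-positive, Le-Cre being a driver active in the eye's surface ectoderm and its derivatives. The labels give no Cre status for wild type. By the series' design text, cDNA of 3 embryos per genotype was pooled for each region, but the extraction protocol names lens tissue of 1 embryo. By the design text arrays of a genotype share embryos, so the p-values below understate the variation between animals.

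Immediate early genes are transcribed within minutes of a growth signal, a stress or a wound, with no need for new protein synthesis. Serum response factor and CREB, sitting on their promoters in advance, are switched by ERK and p38 kinase pathways, and the mRNAs, many of which carry AU-rich elements, decay quickly. Because tissue handling, cutting and delay before freezing can also start this response, their level is often read as a sign of how a sample was treated as well as of its biology.

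The median probe signal was 77.3 to 83.7 intensity units by array, and 39.8% to 45.6% of probes had a detection p-value under 0.05 against the negative controls of their array. The KO nasal array had the lowest share of detected probes and the WT dorsal array the highest. Sox9 itself read 9.85 to 10.21 on a normalized log2 scale on the KO arrays and 8.29 to 10.35 on the WT arrays, so its level did not separate the labels. The position of its probe against the floxed segment was not analysed here, and the labels of genotype were therefore not checked by it. Markers of surface epithelium were present throughout, with 14 of 14 on the array detected at least once and a summed normalized intensity, over the 12 that passed the detection filter, of 8952 to 9984 on KO and 8377 to 9558 on WT arrays.

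Of the 10 genes, 5 were detected on all 6 arrays (Egr1, Jun, Dusp1, Ier3 and Zfp36), Fos was detected on 3, and the other 4 were at or near the level of the negative controls. Genes entered the statistical comparisons if a probe was detected on at least 2 arrays, which 6 members passed, out of 11147 genes in all. Averaged over the arrays on the normalized log2 scale, Egr1 was at 8.18, Dusp1 at 7.31, Jun at 6.57, Ier3 at 6.52, Zfp36 at 6.04 and Fos at 4.52. Within the 11147 genes tested, Egr1 was at percentile 86.5 of mean probe level and Fos at percentile 10.4. Probe levels are not comparable between genes as amounts of mRNA, so these percentiles describe probes.

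Egr1 encodes a zinc finger transcription factor induced through ERK and serum response factor. Its deposited signal was 355 ± 19.0 (bead SE), 334 ± 12.8 and 438 ± 20.4 intensity units on the WT nasal, temporal and dorsal arrays. On the KO arrays it was 142 ± 3.38 in nasal, 485 ± 18.9 in temporal and 582 ± 18.8 in dorsal. Egr1 was thus low on a single array, KO nasal, and the other KO arrays stood above all 3 WT arrays in deposited signal. That signal was not normalized between arrays, and its median over all probes was also higher on every KO array than on every WT array. After normalization KO temporal (8.56) lay below WT dorsal (8.81), and the genotypes overlapped on both scales.

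Fos, the AP-1 subunit that pairs with Jun proteins, was barely above background. Its signal was 79.1, 79.6 and 81.3 units on the WT nasal, temporal and dorsal arrays and 83.4, 91.2 and 85.3 on the KO arrays in the same order, with bead SEs of 1.85 to 2.64. It was detected on the WT dorsal, KO temporal and KO dorsal arrays and not on the other 3. Its paralogue Fosb, read from 25 to 40 beads, gave 72.7 to 83.1 units and was detected on 0 arrays. Atf3, a stress-induced repressor of the ATF and CREB family, gave 68.3 to 83.0 units and was also detected on 0 arrays.

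Jun encodes the main partner of Fos and activates its own promoter. Its signal was 139 ± 5.25, 117 ± 3.33 and 116 ± 2.89 units on the WT nasal, temporal and dorsal arrays, and 242 ± 8.38, 239 ± 8.37 and 151 ± 4.34 units on the KO arrays in that order. All 3 KO signals were above all 3 WT signals, but on the normalized scale the ranges overlapped, with KO dorsal at 6.38 below WT nasal at 6.53. Before normalization the upper quartile of all probe signals was also higher on the KO arrays (106.2 to 111.2 units) than on the WT arrays (98.74 to 102.6). The share of all genes separated in this way in deposited signal was not computed. Junb, a family member that often restrains Jun, was read by a pair of probes and was not well above background on either. The probe annotated to its RefSeq transcript (ILMN_1220034) was detected on the WT nasal array alone, at 79.5 units, and the probe annotated to a cDNA clone (ILMN_1254833) on the WT dorsal array alone, at 81.8 units. Ier2, a short-lived nuclear protein gene, was detected on the KO dorsal array alone, at 82.6 units, with 73.0 units at its lowest on WT nasal.

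Dusp1 encodes the phosphatase that inactivates p38, JNK and ERK, and is a feedback member of the response. Its signal was 261 ± 9.70, 129 ± 3.08 and 127 ± 3.29 units on the WT nasal, temporal and dorsal arrays. On the KO arrays it was 465 ± 20.8, 313 ± 12.6 and 235 ± 9.56 units. Within each genotype nasal was the highest, and the WT nasal array reached above the KO dorsal array, so the genotypes overlapped.

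Zfp36 encodes tristetraprolin, which binds AU-rich elements and speeds the decay of mRNAs that include several immediate early transcripts. Its signal was 93.3 ± 2.07, 105 ± 2.66 and 115 ± 2.96 units on the WT nasal, temporal and dorsal arrays, and 189 ± 5.08, 184 ± 5.90 and 128 ± 4.33 units on the KO arrays. Zfp36 was the single member whose KO and WT arrays did not overlap after normalization, 5.95 to 6.85 against 5.24 to 5.90, and the gap between KO dorsal and WT dorsal was within their bead error. All 3 KO arrays stood above all 3 WT arrays in 5.16% of the genes tested.

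Ier3 encodes a small stress-responsive protein that modulates ERK and NF-kB signalling and cell survival. It read 170.3 ± 7.85, 193 ± 7.43 and 97.2 ± 3.19 units on the WT nasal, temporal and dorsal arrays, and 142 ± 4.26, 226 ± 7.49 and 144 ± 5.88 units on the KO arrays. Temporal was the highest region in both genotypes, and WT dorsal was the lowest array. KO and WT values interleaved. Between its lowest and highest array Ier3 spanned 1.90 log2 units, against 2.70 for Egr1, 2.33 for Dusp1, 1.61 for Zfp36, 1.43 for Jun and 0.39 for Fos. The span of Egr1 was at percentile 97.2 of the 11147 genes, and that of Fos at percentile 6.34.

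**Figure D1:**
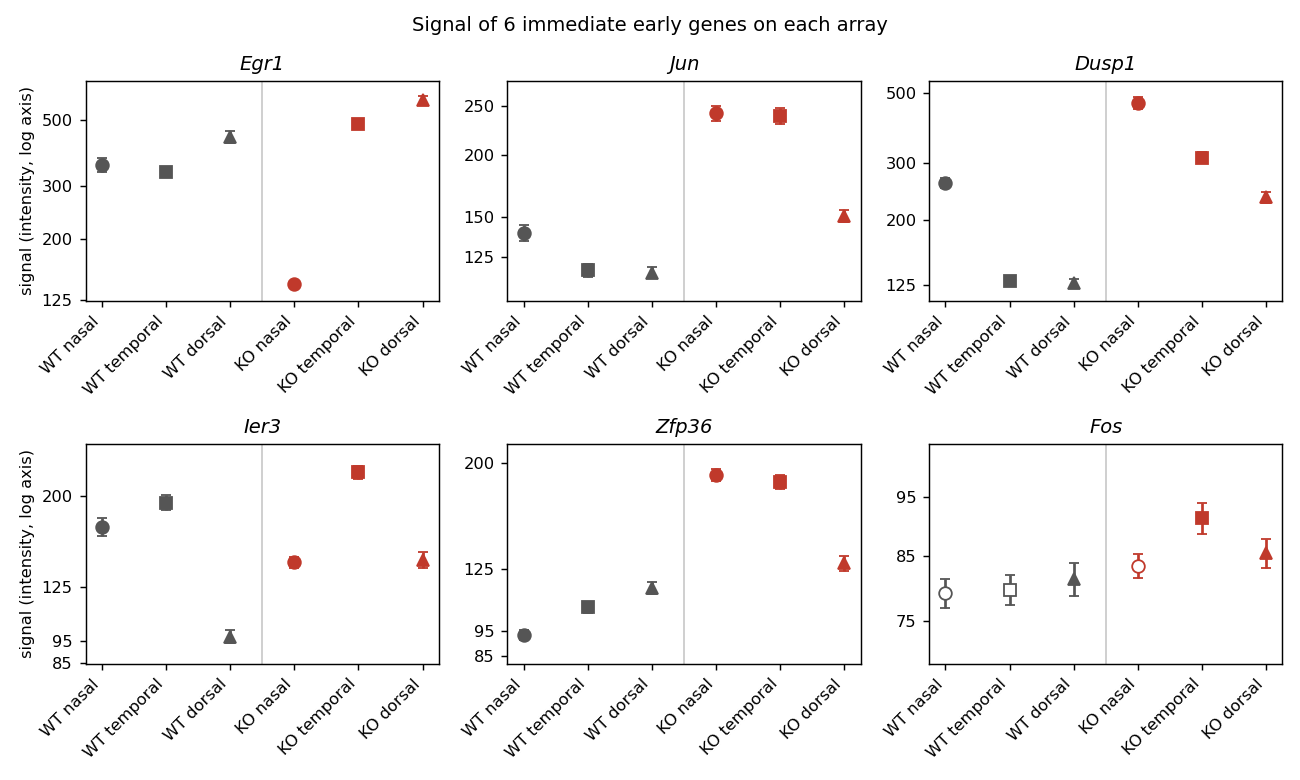
Deposited signal (intensity units, log axis) of the 6 members that passed the detection filter on each array, WT in grey and KO in red, with circles for nasal, squares for temporal and triangles for dorsal. Bars are the standard error over beads and open symbols are arrays where the probe was not detected. Egr1 is low on KO nasal alone at 142 units, while Dusp1 is highest there at 465.

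The comparison of KO with WT asks which of these genes differ when Sox9 is deleted in the eye surface. On the KO arrays Dusp1 was higher in nasal, temporal and dorsal by log2 differences of 0.63, 1.64 and 1.13. Jun was higher by 0.81, 1.39 and 0.43, and Zfp36 by 1.61, 1.20 and 0.05. Bead SEs of these differences, which cover measurement on the array only, were 0.10 to 0.12, so the dorsal difference of Zfp36 was within its bead error. Higher in KO within all 3 regions held for these 3 of 6 members and for 13% of all genes tested. Fitted over the regions, the log2 difference was 1.13 (SE 0.29) for Dusp1, 0.95 (SE 0.36) for Zfp36 and 0.87 (SE 0.29) for Jun.

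None of the members passed. In limma, with region and genotype as terms and Benjamini-Hochberg adjustment over 11147 genes, Dusp1, Zfp36 and Jun each had an adjusted p = 0.814. The comparison called 0 of 6 members and 0% of all genes. At an unadjusted p under 0.05 limma counted 3 of 6 members, Dusp1 (0.00908), Jun (0.0245) and Zfp36 (0.0417), against 5.9% of all genes. The median fitted difference was 0.51 over the 6 members and -0.01 over all genes. The 95% intervals reached from 0.41 to 1.86 for Dusp1, from 0.16 to 1.59 for Jun and from 0.05 to 1.86 for Zfp36, before any adjustment for the number of genes. The members that passed the detection filter are not a sample of the list, and Fos passed it through 2 KO arrays and 1 WT array. The high temporal values, known when the genes were chosen, enter these fits, so the count and the median are no independent support. Leaving out either temporal array gave 0.88 for Dusp1, 0.83 for Zfp36, 0.62 for Jun and a median of 0.36. Without either nasal array Zfp36 had 0.63.

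Egr1 was the single member with a fitted difference below 0, and those of Ier3 and Fos were above 0 and smaller than their SE. Egr1 had a fitted difference of -0.55 (SE 0.54, adjusted p = 0.895 in limma), made of -2.19 in nasal, 0.42 in temporal and 0.12 in dorsal. Without either nasal array the fit for Egr1 was 0.27. Ier3 had 0.09 (SE 0.38, adjusted p = 0.981 in limma), with -0.77 in nasal, 0.07 in temporal and 0.97 in dorsal, and its fit was -0.35 without either dorsal array. Fos had 0.15 (SE 0.25, adjusted p = 0.938 in limma). In temporal Fos was detected on the KO array and not on the WT array, with a difference within the bead error at the 95% level.

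**Figure D2:**
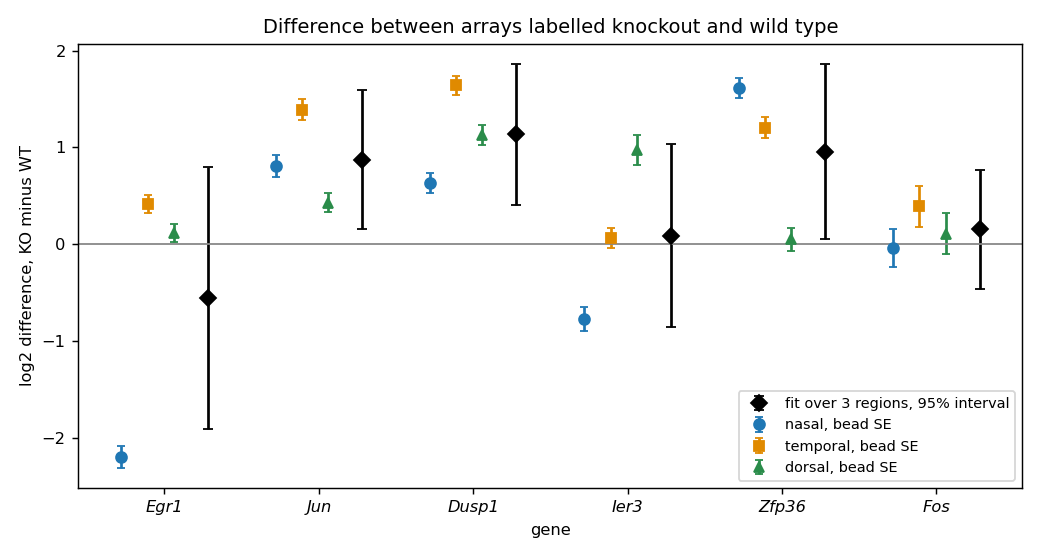
Log2 difference between the KO and the WT array of each region, with bead SE, and the limma fit over the 3 regions with its 95% interval (black diamonds), for 6 genes. Dusp1, Jun and Zfp36 lie above 0 in every region, Zfp36 by 0.05 in dorsal, and Egr1 lies at -2.19 in nasal.

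Since each region had a single KO and a single WT array, its differences carry no test, and the high temporal values were known when the genes were chosen. In temporal, Dusp1 (3.12-fold), Jun (2.62-fold) and Zfp36 (2.30-fold) were at least 2-fold higher on the KO array, 3 of 6 members against 8.58% of genes detected on either array. None was at least 2-fold lower there, against 8.31%. In nasal, Zfp36 was 3.06-fold higher, 1 of 5 members detected in that region against 10.5% of genes, and Egr1 was 4.58-fold lower, again 1 of 5 against 10.5%. In dorsal, Dusp1 was 2.19-fold higher, 1 of 6 members against 3.15%, and 0 of 6 were at least 2-fold lower, against 3.35%. Median differences over the 6 members were 0.30, 0.81 and 0.27 in nasal, temporal and dorsal, against -0.02, -0.02 and -0.00 over all genes. All 6 members were above 0 in temporal and in dorsal and 3 of 6 in nasal, where 48.4%, 49.8% and 48.2% of all genes were. In dorsal the values of Egr1 (0.12, bead SE 0.09), Fos (0.11, bead SE 0.21) and Zfp36 (0.05, bead SE 0.12) were within the bead error at the 95% level. With median scaling, where the median of all genes in dorsal moved to 0.18, Fos in dorsal had 0.15 and so lay below it.

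Whether the genotype difference itself depended on the region was tested as an interaction in limma, with 1 residual degree of freedom. A high level of such genes in temporal was known beforehand, so the temporal interaction gives no independent support. For temporal against the mean of nasal and dorsal, Egr1 had a difference of differences of 1.46 (SE 1.08, adjusted p = 0.908), Jun 0.77 (SE 0.56) and Dusp1 0.76 (SE 0.57), both also at 0.908. For dorsal against the mean of nasal and temporal, limma gave Zfp36 -1.36 (SE 0.60) and Ier3 1.33 (SE 0.67), each with an adjusted p = 1. Both interactions called 0 of 6 members and 0% of genes, and 0 of 6 members were under an unadjusted p of 0.05, against 5.64% of genes for temporal and 2.08% for dorsal.

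The regions were compared over both genotypes. Nasal and temporal epithelium gives rise to the Harderian and lacrimal glands and dorsal does not. Ier3 was higher in the mean of nasal and temporal than in dorsal by 1.11 (SE 0.40), which was 0.45 without WT dorsal and 1.78 without KO dorsal, with mean levels of 6.62, 7.15 and 5.77 in nasal, temporal and dorsal, and Dusp1 by 0.79 (SE 0.31). Egr1 had -1.03 (SE 0.58), Jun 0.60 (SE 0.30), Zfp36 0.17 (SE 0.39) and Fos -0.01 (SE 0.26). Each had an adjusted p = 0.999 in limma, which called 0 of 6 members and 0% of genes, and at an unadjusted p under 0.05 it counted Ier3 and Dusp1, against 3.83% of genes. Between nasal and temporal, Dusp1 was 1.19 (SE 0.36) higher in nasal, with 1.70 on the WT and 0.69 on the KO arrays. Its adjusted p was 0.69 in limma. Egr1 had -1.02 (SE 0.67) and Ier3 -0.53 (SE 0.47). This comparison also called 0 of 6 members and 0% of genes, and 1 of 6 members was under an unadjusted p of 0.05, against 7.08% of genes.

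The list asks whether such genes vary together by array. Each gene was centred on its own mean over the 6 arrays. A high level of such genes in temporal was known when the list was chosen, so the counts for KO temporal describe it and support nothing. On KO temporal all 6 members were above their own mean, by 0.24 (Fos) to 0.73 (Jun), against 47.1% of all genes above theirs on that array. On WT temporal and on WT dorsal 1 of 6 members was above its mean, Ier3 in temporal and Egr1 in dorsal, and on the other 3 arrays 3 of 6. KO nasal was the array with the most opposed members. It was the highest array for Jun, Dusp1 and Zfp36 (0.77, 1.18 and 0.81 above their means) and the lowest for Egr1 (-1.95). The mean over members was 0.54 on KO temporal, 0.05 to 0.08 on KO nasal, KO dorsal and WT nasal, -0.32 on WT temporal and -0.42 on WT dorsal.

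**Figure D3:**
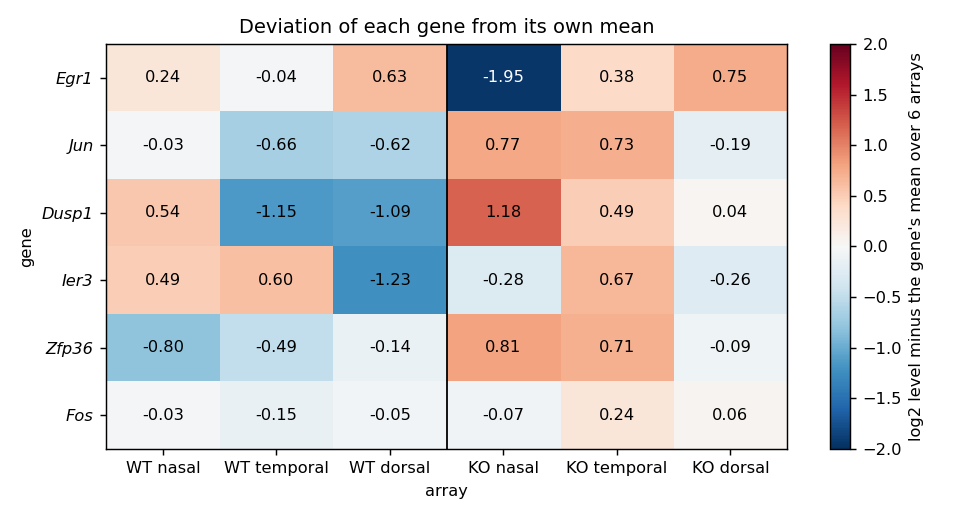
Normalized log2 level of each gene minus its own mean, by array, with red for above and blue for below the mean. The KO temporal column is above the mean in 6 of 6 genes, whereas the KO nasal column runs from -1.95 for Egr1 to 1.18 for Dusp1.

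Correlations between members describe the same arrays and carry no p, since the 6 arrays share a slide and, by the design text, those of a genotype share embryos. Over the 15 pairs of members the median Pearson r was 0.29, against -0.00 over all 62122231 pairs of tested genes. Of the 15 pairs 4 (26.7%) had r of at least 0.5, against 17.3% of all pairs, and 3 (20%) were below -0.5, against 17.1%. Jun and Dusp1 had the highest value (r = 0.90), followed by Jun and Zfp36 (0.79), Fos and Jun (0.55), and Dusp1 and Zfp36 (0.52). All 3 pairs below -0.5 joined Egr1 to a member of this group, Jun (-0.56), Dusp1 (-0.55) and Zfp36 (-0.51). Ier3 was between -0.10 and 0.29 with every other member.

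Single arrays moved these values in both directions. Without KO temporal the median over the 15 pairs was 0.05, and Fos had 0.15 with Jun and 0.03 with Zfp36. Egr1 then had -0.82 with Jun, -0.63 with Dusp1 and -0.74 with Zfp36. Without KO nasal, by contrast, Egr1 had 0.09 with Jun, 0.16 with Dusp1 and 0.36 with Zfp36, and the median over the 15 pairs was 0.41. On those arrays 6 pairs (40%) had r of at least 0.5, against 20.7% of all gene pairs over the same 5, and 1 pair, Egr1 with Ier3 at -0.72, was below -0.5. Fos then had 0.92 with Jun and 0.85 with Zfp36, values that rest on Fos signals of 79.1 to 91.2 units, close to background.

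**Figure D4:**
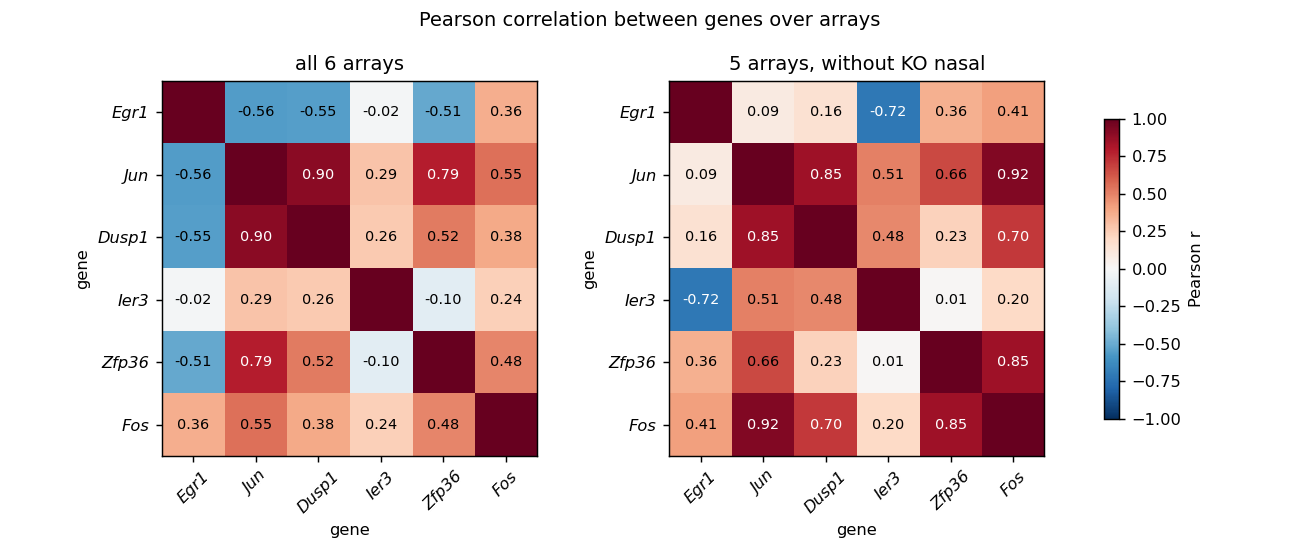
Pearson correlation between the normalized log2 levels of each pair of genes over all 6 arrays (left) and over 5 arrays without KO nasal (right), from blue (-1) to red (1). The Egr1 row turns from -0.56 to 0.09 with Jun, while Jun and Dusp1 stay at 0.90 and 0.85.

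Promoters are shown for the 3 genes that were higher in KO in each region, Dusp1, Jun and Zfp36, with Fos beside them as the classical serum-induced gene. The RefSeq table (GRCm38.p6) held 8 of the 10 members, without Egr1 and Ier2, and each entry runs from 250 bases before to 50 after the annotated gene start, 5′ to 3′ on the strand of the gene. Both strands were searched for the CRE core TGACG and its full palindrome TGACGTCA (CREB sites), for the EGR site GCGGGGGCG and for the CArG box, the serum response factor site. Matches are in capitals, and the full CRE holds the core on both strands.
Dusp1 (chr17:26508423-26508722, minus strand): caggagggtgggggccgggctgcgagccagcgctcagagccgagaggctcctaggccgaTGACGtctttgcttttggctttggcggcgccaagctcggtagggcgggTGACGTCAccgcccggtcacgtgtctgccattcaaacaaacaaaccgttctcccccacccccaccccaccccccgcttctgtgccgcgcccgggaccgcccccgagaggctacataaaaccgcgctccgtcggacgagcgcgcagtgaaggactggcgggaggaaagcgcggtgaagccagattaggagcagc
Jun (chr4:95052173-95052472, minus strand): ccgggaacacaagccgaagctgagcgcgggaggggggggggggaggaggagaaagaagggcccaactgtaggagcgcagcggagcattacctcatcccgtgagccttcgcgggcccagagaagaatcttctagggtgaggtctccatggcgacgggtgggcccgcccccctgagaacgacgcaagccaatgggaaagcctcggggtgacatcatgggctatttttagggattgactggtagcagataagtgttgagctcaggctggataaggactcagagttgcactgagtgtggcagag
Zfp36 (chr7:28379179-28379478, minus strand): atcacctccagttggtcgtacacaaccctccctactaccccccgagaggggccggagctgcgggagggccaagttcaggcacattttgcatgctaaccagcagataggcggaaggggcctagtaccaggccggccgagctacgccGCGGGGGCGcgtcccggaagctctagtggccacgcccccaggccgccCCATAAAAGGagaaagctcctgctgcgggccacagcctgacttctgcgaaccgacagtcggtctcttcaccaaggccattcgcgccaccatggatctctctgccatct
Fos (chr12:85473640-85473939, plus strand): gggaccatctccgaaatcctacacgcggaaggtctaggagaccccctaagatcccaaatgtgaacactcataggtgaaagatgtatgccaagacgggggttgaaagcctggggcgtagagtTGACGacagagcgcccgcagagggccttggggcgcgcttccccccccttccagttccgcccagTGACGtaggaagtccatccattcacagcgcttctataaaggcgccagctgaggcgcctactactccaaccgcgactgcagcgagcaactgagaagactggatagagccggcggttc

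Dusp1 held the full CRE at position -143, which 1.79% of 32851 promoters of this length share, and a further core at -191. Fos held cores at -129 and -66, and a core was found in 5 of 8 member promoters (Atf3, Dusp1, Fos, Fosb and Junb) against 20.8% of all. Zfp36 held a CArG box at -58, found in 1.63% of all promoters and in 1 of 8 members. It also held an EGR site at -105, found in 2.91% of all and in 2 of 8 members, Zfp36 and Fosb. In Jun none of these letters were in the window. The 3 genes therefore had no searched motif in common here, and windows of this length leave out more distant sites.

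Other genes of early and stress responses were taken as lists. Of 41 further immediate early genes on the array 30 were tested, 14 with a fitted KO difference above 0 and 16 below, where 49.2% of all genes were above 0. Their median was -0.05 against -0.01 over all genes, and 0 of 30 passed in limma. Mafk was detected on 2 WT arrays and 0 KO arrays, and Dusp2 on 2 KO arrays and 0 WT arrays. Both thus passed the filter through the group where they were higher. Per1, a circadian gene induced by CREB, had 1.40 (SE 0.97), which came from KO temporal at 8.77 against 4.23 to 4.87 on the other arrays. Rhob, a small GTPase gene induced by growth factors and stress, had 0.90 (SE 0.36). Fosl2, which encodes another Fos family subunit of AP-1, had -1.44 (SE 0.35), Myc -1.21 (SE 0.33), the matrix protein gene Ccn2 -1.09 (SE 0.30) and the ERK phosphatase gene Dusp4 -1.07 (SE 0.39), each with an adjusted p = 0.814 in limma. Rhob, Fosl2, Myc, Ccn2 and Dusp4 were the 5 of 30 under an unadjusted p of 0.05 in limma, against 5.9% of all genes. Rhob, Myc, Ccn2 and Dusp4 are named because of their values. Myc was detected on 3 WT arrays and 1 KO array and Ccn2 on 3 and 2, so their differences are partly against undetected values.

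The list named ERK feedback holds genes switched on by the same kinase as Egr1 and Fos, and also the receptor genes Egfr and Fgfr2. It had 9 of 10 members below 0 with a median of -0.40. They ran from the FGF inhibitor gene Il17rd at -1.03 (SE 0.33) to the EGF receptor gene Egfr at 0.57 (SE 0.34), with Fgfr2 at -0.17. Regulators of the serum response had 6 of 9 below 0 and a median of -0.01, with the ternary complex factor gene Elk3 at -1.35 (SE 0.29), Crem at 0.35 (SE 0.27), and Srf, also counted above, at -0.31. Heat shock genes, another sign of stress, had 9 of 13 below 0 and a median of -0.14, from the chaperonin gene Hspd1 at -0.63 (SE 0.37) to the co-chaperone gene Dnajb4 at 0.78 (SE 0.30). The inducible Hspa1a and Hspa1b, picked after their values were seen, had -0.04 and 0.55. Genes of the integrated stress response had 6 of 10 above 0 (median 0.14, Herpud1 0.62, Asns -0.46). NF-kB early genes had a median of 0.13 over the 7 of 11 that passed the filter, with Birc3 at -0.34. Nfkbie, an inhibitor of NF-kB, was detected on 2 KO arrays and 0 WT arrays and so passed the filter through the group where it was higher, at least 1.37-fold. Hypoxia genes had 7 of 9 above 0 (median 0.47, the glucose transporter gene Slc2a3 1.09, Pgk1 -0.39). Genes of AU-rich mRNA decay had 6 of 9 above 0 (median 0.12, the deadenylase gene Cnot6 0.47, Cnot1 -0.28). Spry4 and Trib3 were each detected on 2 WT arrays, Mrtfa on 3 WT arrays, and all of them on 0 KO arrays. Ppp1r15a and Zfp36l2 were each detected on 2 KO arrays and 0 WT arrays. These genes passed the filter through the group where they were higher, so the counts above and below 0 are partly set by it. Of all genes 49.2% had a fitted KO difference above 0. In these 7 lists 0 genes passed in limma. At an unadjusted p under 0.05 it counted Elk3 (1 of 9), Dnajb4 (1 of 13), Slc2a3 (1 of 9) and 2 of the 10 ERK feedback genes, Il17rd and Spry2. The share over all genes was 5.9%. Averaged over their genes and centred, AU-rich decay genes stood at 0.14 on KO temporal, their highest array. There NF-kB genes stood at 0.07, integrated stress response genes at 0.01, heat shock genes at -0.01, other immediate early genes at -0.05, serum response regulators at -0.12, ERK feedback genes at -0.19 and hypoxia genes at -0.28. Over the 6 arrays the Pearson r with the members' mean was 0.88 for AU-rich decay (9 genes, Cnot6 among them), 0.54 for the integrated stress response and 0.50 for NF-kB. It was 0.14 for heat shock, 0.04 for other immediate early genes, 0.03 for hypoxia, -0.48 for ERK feedback and -0.76 for serum response regulators.

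**Figure D5:**
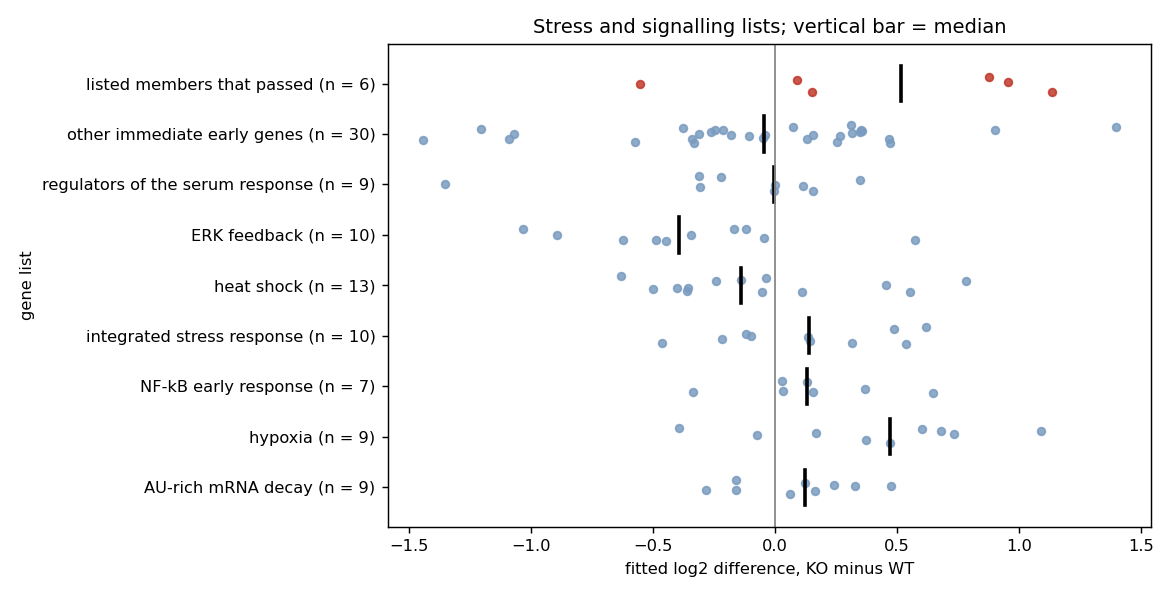
Fitted log2 difference, KO minus WT, of each tested gene (points) and the median of each list (bar), with the 6 members in red at the top. The members' median is 0.51, that of 30 other immediate early genes -0.05 and that of heat shock genes -0.14.

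The laser cut was aimed at epithelium, and in RNA from a cut area fewer cells of a type and less RNA per cell cannot be told apart. Of the marker lists, 8 of 14 macrophage markers passed the detection filter, and all 8 had a fitted KO difference above 0, as 49.2% of all genes had. Csf1r, Lyz2, Tyrobp and Aif1 were each detected on 2 KO arrays and 1 WT array. They passed the filter through the KO arrays, so the count of 8 is partly set by the filter. In limma 0 of 8 passed. Mrc1, the 1 marker at an unadjusted p under 0.05, was detected on 3 KO arrays and 0 WT arrays and so passed the filter through the KO arrays alone, at least 2.13-fold higher. Their summed normalized intensity was 124 to 276 on KO and 41.3 to 130.3 on WT arrays, which overlap. Of the other markers C1qb, C1qc, Ptprc and Cd14 were detected on 0 arrays. KO nasal, highest for Jun, Dusp1 and Zfp36, was also the highest array for macrophage markers (276) and erythroid markers (685, against 132 to 490 elsewhere). The other arrays did not follow this order. KO dorsal was at 248 for macrophage markers but lowest for erythroid markers (132). KO temporal, next highest for Jun and Zfp36, was at 124 for macrophage markers, below WT nasal (130.3). WT temporal, where Dusp1 and Jun were lowest after normalization, had the highest summed level of nerve and Schwann cell markers, 752 against 50.8 to 336 on the other arrays. That sum covers 4 tested genes, with Sox10 (8.36) and Erbb3 (7.76) brightest on this array, and Erbb3 was higher on KO nasal (8.35). Ngfr (6.71) and Fabp7 (7.36) were, like Sox10, highest on WT temporal. These genes alone do not identify nerve or Schwann cells. WT temporal also had the lowest sum of periocular mesenchyme markers, 738 against 884 to 1364. Lens markers summed to 229 on KO temporal and 43.7 to 97.3 elsewhere. Of 7 on the array 4 passed, Prox1 at 7.76 on KO temporal and the others at 4.50 to 4.82 there. Cryba1 among them had a fitted KO difference of -0.84. Pigment cell markers summed to 335 to 413 on KO and 135 to 319 on WT arrays. Of 6 on the array 2 passed, Mitf (7.15 to 8.69) and Pmel (4.31 to 5.11, fitted KO difference -0.02). The KO temporal lens sum thus rests mainly on Prox1 and the pigment sums on Mitf, so they do not identify these cells. Skeletal muscle markers lay between 12.6 and 56.9. Neural retina markers were detected on 0 arrays, and of 7 endothelial markers 2 were detected on any array. The part of any such other cells in the differences of Jun, Dusp1 and Zfp36 was not tested.

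Genes with a pattern most like the members' mean over the 6 arrays were sought among 3929 genes detected on every array with a range of at least 1 log2 unit. The closest were Creld1 (r = 0.98), Gtf3c5 (0.98), Depdc5 (0.98), Git1 (0.97), Smndc1 (0.97), Cnot6 (0.96), Insr (0.95) and Pet100 (0.95). Creld1 read 6.79, 5.96 and 5.27 on the WT nasal, temporal and dorsal arrays and 6.63, 7.81 and 6.71 on the KO arrays. Most opposite were Nus1 (-0.98), Fam98b (-0.97), Ldlrad3 (-0.96) and Lage3 (-0.96). These values span 6 arrays and carry no p, and the best of the same candidates reached 0.95 to 0.99 with each member taken alone.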

How the data were processed

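Per the file headers, the authors' deposited signal table gave an average signal intensity per probe and array, with its bead standard error, bead number and detection p-value against negative controls (936 by its steps). The submitters' processing notes name GenomeStudio, without a version. By their values, the deposited intensities still held the background and had not been normalized between arrays. A second deposited table held the authors' processed intensity values, which had values below 0 and nearly equal medians (4.24 to 4.25), by a method not stated in these sources. Its columns ran in the same direction as the signals, on a linear scale, and served as an alternative. Another 1315 entries, 1210 of them with values, had no probe identifier and were not used.

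With limma 3.58.1 in R 4.3.3, background was removed by normexp (nec, which infers the control parameters from detection p-values; offset 16), followed by quantile normalization and log2. The offset makes fold changes of dim genes smaller than they are. Of 45281 probes 34885 had 1 gene symbol, 18 several and 10378 none. Symbols were updated through the RefSeq table of GRCm38.p6. Probes with detection p-values under 0.05 on 2 or more of the 6 arrays were tested, and each gene was read from its brightest one. A linear model with region and genotype was fitted to all 11147 genes (lmFit, eBayes). P-values were adjusted by Benjamini-Hochberg and called under 0.05. Nothing says the arrays came from separate animals, so p-values measure only the spread between these arrays, whose number limits the precision. Where a gene was detected on 1 side only, its fold is a bound, against the higher of its own value and the lowest detected value of the other array. Named genes were all 10 members, the 8 most like and 4 most unlike genes by Pearson r to the members' mean profile, and the largest difference up and down in each of 8 lists; others are said to be picked by value. Members and lists were chosen with earlier results of these data known, among them a high median of such genes in temporal. Genome coordinates are those of the RefSeq promoter table. Alternatives are given in the closing section.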

Additional observations from a re-analysis of the deposited data

Results flagged for a closer look

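The genotype difference of Egr1 had opposite signs in 2 regions, each beyond the bead error at the 95% level. It was -2.19 in nasal and 0.42 in temporal, 2.61 log2 units apart. Ier3 likewise had -0.77 in nasal and 0.97 in dorsal, 1.74 apart. With 1 array per genotype and region, these differences between nasal and a single other region were not tested. The interactions run in limma set 1 region against the mean of the others, and neither gene passed there.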

How the results depend on the processing

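Under all 15 alternatives (no background correction, offset 50, median scaling, no detection filter, detection on all 6 arrays at 0.01, the mean over probes, the authors' processed values, 1 term in the model, array weights, and each array left out) 0 members passed in any of the 3 comparisons. The KO differences of Dusp1 (0.78 to 1.40), Jun (0.54 to 1.13) and Zfp36 (0.50 to 1.41) stayed above 0 in all 15, with adjusted p of 0.627 to 0.924 in limma, and were lowest without background correction. Several of the 15 could not move these differences. Each of the genes has 1 probe, so the filters and the mean over probes returned the main value, as did 1 term in the model. Leaving out the KO or the WT array of a region gave the same fit, so the 15 are not separate checks. The median member difference, 0.51, was 0.077 with no filter, which lets in the 4 members that had not passed, and 0.87 with detection on all 6 arrays, which drops Fos. Under these filters the nasal median was -0.012 and 0.63 and the temporal median 0.27 and 1.20, and without background correction the temporal median was 0.50. The median scaling moved the median of all genes to 0.13, 0.07 and 0.18 in nasal, temporal and dorsal.

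Leaving out 1 array changed signs as follows, none past the threshold on either side. For KO minus WT, Egr1 ran from -1.04 to 0.27 and Ier3 from -0.35 to 0.52. For nasal and temporal minus dorsal, Fos ran from -0.10 to 0.080 and Zfp36 from -0.51 to 0.85, while Ier3 (0.45 to 1.78), Egr1 (-1.65 to -0.42) and Jun (0.27 to 0.94) kept their signs. For nasal minus temporal, Egr1 ran from -2.25 to 0.21, Fos from -0.28 to 0.081, Jun from -0.050 to 0.72, Ier3 from -1.17 to 0.12 and Zfp36 from -0.60 to 0.38, and the members' median from -0.29 to 0.16, the last of these without KO nasal. The median correlation between members ran from 0.048 without KO temporal to 0.41 without KO nasal. The cause was not tested. Region is already a block in the comparison of genotypes, and without it the adjusted p in limma was 0.828 for Dusp1, 0.823 for Jun and 0.757 for Zfp36. Signal over background limits Fos, Fosb, Junb, Ier2 and Atf3, whose signals were at or near the negative controls: no difference in them was detectable here.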

Other observations

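Chosen after their values were seen, a few further patterns follow, as values. The genes closest to Dusp1 over the 6 arrays were the gap junction genes Gjb6 (r = 0.99) and Gjb2 (0.98), which encode the epithelial connexins 30 and 26. Gjb6 read 8.29, 7.23 and 7.15 on the WT nasal, temporal and dorsal arrays and 8.86, 8.31 and 7.88 on the KO arrays. Gjb2 read 9.29, 7.80 and 8.09 on WT and 9.79, 9.26 and 8.56 on KO in that order. Their fitted KO differences were 0.79 (SE 0.25) and 0.81 (SE 0.30), each with an adjusted p = 0.814 in limma.

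Klf6, a zinc finger factor of the wider early response, shared the low value of Egr1 on KO nasal, at 8.34 against 9.60 to 10.24 on the other 5 arrays. Its r with Egr1 was 0.96 over 6 arrays and 0.66 without KO nasal. Per1, at 8.77 on KO temporal, was detected on 2 arrays in all.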
